A study of Mus musculus with 80 samples.

Results

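The genes described here are 9 transcripts that mark microglia, the resident macrophages of the brain: P2ry12, Cx3cr1, Tmem119, Csf1r, C1qa, C1qb, C1qc, Trem2 and Aif1. They were chosen by name, as a list of known microglia genes, and are 9 of the 27179 genes in the count table. All 9 passed the filter on low counts, which asked for 5 CPM (a gene's counts scaled by the total counts of its library) in 8 libraries or more, as did 13016 genes in all. Their levels were followed through the amygdala, hippocampus, neocortex, hypothalamus and cerebellum of C57BL/6 female mice, whose substrain the methods of the study give as C57BL/6J. Virgin females were never mated. Primiparous females were mated from 8 weeks of age and raised 1 litter, and the labels put the harvest 3 weeks after weaning, while the methods of the study give a longer interval. All females were age-matched, and no group carried a transgene or received an agent. Mating, contact with males, pregnancy and nursing all differed between the states and cannot be told apart. The hypothalamus and the neocortex had 8 virgin and 8 primiparous libraries each, and the cerebellum, hippocampus and amygdala had 7 virgin and 8 primiparous libraries each.

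Microglia enter the brain early in development and renew themselves there. They depend on signalling through the receptor kinase that Csf1r encodes, whose ligands are CSF1 and IL-34. P2ry12 encodes the purine receptor with which their processes sense released nucleotides, Cx3cr1 the receptor for the neuronal chemokine fractalkine (Cx3cl1), and Tmem119 a surface protein widely used to tell microglia from other macrophages. C1qa, C1qb and C1qc encode the chains of C1q, which starts the classical complement cascade and is known for tagging synapses for removal. Trem2 encodes a lipid-sensing receptor that signals through the adaptor of Tyrobp, and Aif1 encodes IBA1, the protein most often stained to show microglia in tissue.

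Each library came from 1 animal, and the 16 animals each gave up to 5 libraries. Counted reads per library ran from 7959192 to 37871854 with a median of 17623886. Sequencing pools were made by region, so region and sequencing pool cannot be told apart. The hippocampus library of primiparous animal 413 stood apart, with 54.3 CPM of Gabra6, a cerebellar granule cell gene, against at most 1.77 CPM in the other 14 hippocampus libraries. In 4 hippocampus and 4 cerebellum libraries the choroid plexus genes summed to more than 500 CPM, and in 0 libraries of the other regions. State was also uneven over the series of animal numbers, since 7 primiparous but 2 virgin animals had numbers of 3 digits, and 1 primiparous and 6 virgin animals had numbers of 4 digits. What the series stand for is not given in the labels. In these bulk samples, fewer microglia and less RNA per microglial cell cannot be told apart.

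The 3 C1q genes lie side by side on chromosome 4 of GRCm38 (mm10), all on the minus strand: C1qb at chr4:136880129-136886187, C1qc at chr4:136889804-136893065 and C1qa at chr4:136895917-136898803. P2ry12 lies at chr3:59216272-59262871, Tmem119 at chr5:113793729-113800516 and Cx3cr1 at chr9:119901616-120069879, all on the minus strand. Trem2 lies at chr17:48346401-48354147 on the plus strand and Aif1 at chr17:35170991-35176068 on the minus strand. RefSeq starts can differ from those of the GENCODE gene models used for the positions above. RefSeq promoter windows (GRCm38.p6, 250 bases before to 50 bases after the annotated start) were taken for 6 of the 9 genes, without Csf1r, C1qa and Tmem119. They were searched on both strands for GAGGAA, which is spelled TTCCTC on the other strand and is a purine-rich core of the kind that PU.1, the lineage factor of macrophages, is known to bind. Of the 6 windows, those of C1qb, C1qc, Trem2 and Aif1 held 1 match each and those of P2ry12 and Cx3cr1 held 0, and 28.3% of the 32851 promoter windows held at least 1. The windows of 3 genes are printed 5′ to 3′ on the gene's strand with the matches in capitals: those of C1qb and C1qc, neighbours of which C1qb passed the test between states in the cerebellum and C1qc did not, and that of P2ry12, the gene whose RNA followed the others least from library to library. They are chr4:136886151-136886450 for C1qb, chr4:136892865-136893164 for C1qc and chr3:59262936-59263235 for P2ry12, all on the minus strand.
C1qb: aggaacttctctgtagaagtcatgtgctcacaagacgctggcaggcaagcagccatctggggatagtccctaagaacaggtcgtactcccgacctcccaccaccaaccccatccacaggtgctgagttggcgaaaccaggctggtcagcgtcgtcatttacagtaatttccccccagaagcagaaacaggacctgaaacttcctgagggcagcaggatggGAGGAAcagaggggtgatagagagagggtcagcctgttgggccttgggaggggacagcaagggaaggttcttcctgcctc
C1qc: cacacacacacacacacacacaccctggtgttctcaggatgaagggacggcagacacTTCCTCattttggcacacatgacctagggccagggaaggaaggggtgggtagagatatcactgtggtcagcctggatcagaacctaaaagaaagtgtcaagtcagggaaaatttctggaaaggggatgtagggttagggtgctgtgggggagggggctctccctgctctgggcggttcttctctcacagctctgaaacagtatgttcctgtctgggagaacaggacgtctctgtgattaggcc
P2ry12: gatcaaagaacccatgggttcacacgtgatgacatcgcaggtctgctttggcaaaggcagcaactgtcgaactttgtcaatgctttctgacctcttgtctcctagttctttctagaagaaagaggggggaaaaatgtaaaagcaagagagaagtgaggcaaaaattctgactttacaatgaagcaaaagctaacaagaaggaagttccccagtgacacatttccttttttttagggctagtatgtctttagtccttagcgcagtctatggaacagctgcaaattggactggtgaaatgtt
The matches are a description of the letters in these windows and not of bound sites.

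Across regions the 9 genes shared 1 outline: high in the amygdala, hippocampus and neocortex, lower in the hypothalamus and lowest in the cerebellum. P2ry12 had 25.5, 35.7 and 49.2 CPM (lowest, median and highest library) in 15 amygdala libraries, 27.6, 36.8 and 41.1 CPM in 15 hippocampus libraries and 16.4, 30.1 and 38.3 CPM in 16 neocortex libraries. It had 13.5, 20.6 and 24.7 CPM in 16 hypothalamus libraries and 5.22, 9.49 and 11.3 CPM in 15 cerebellum libraries. Every cerebellum library was below every library of the other regions for this gene. The amygdala exceeded the cerebellum by 2.24 ± 0.0919 (SE) on the log2 scale for P2ry12 (edgeR adjusted p = 1.08e-36), and this span was close to those of Cx3cr1 (2.2 ± 0.0602) and Aif1 (2.17 ± 0.165).

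Csf1r, the survival receptor, was the most abundant of the 9 in CPM. Its lowest, median and highest values were 99.8, 143 and 159 CPM in the amygdala, 91.7, 112 and 127 CPM in the hippocampus and 93.9, 103 and 120 CPM in the neocortex. They were 70.9, 85.1 and 100.0 CPM in the hypothalamus and 31.0, 40.1 and 47.6 CPM in the cerebellum. The cerebellum libraries again lay below all others, and the amygdala exceeded the cerebellum by 1.94 ± 0.0522 (log2, edgeR adjusted p = 3.3e-49). Csf1r shares 873 exon bases with Hmgxb3 on the opposite strand, and the library kit does not mark the strand, so reads in that stretch could stem from either gene.

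The homeostatic markers Cx3cr1 and Tmem119 were likewise highest in the amygdala and lowest in the cerebellum, but the hippocampus and the neocortex stood in opposite order for these genes. Mean levels of Cx3cr1 were 71.7 ± 11 CPM (SD, n = 15) in the amygdala, 58.0 ± 3.94 in the hippocampus, 54.3 ± 4.84 in the neocortex, 39.1 ± 3.62 in the hypothalamus and 17.2 ± 2.73 in the cerebellum. Those of Tmem119 were 31.8 ± 4.62, 23.9 ± 2.16, 27.8 ± 3.51, 16.8 ± 2.41 and 8.47 ± 1.93 CPM in the same order. Tmem119 of the hypothalamus and the cerebellum overlapped by 1 library, since 15 of 16 hypothalamus libraries were above every cerebellum library and 1 was not.

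The C1q chains fell less steeply from the forebrain to the cerebellum. C1qa had a lowest, median and highest value of 34.2, 51.6 and 64.8 CPM in the amygdala, 33.6, 40.0 and 45.5 CPM in the hippocampus and 37.4, 43.0 and 78.3 CPM in the neocortex. It had 27.1, 31.1 and 44.7 CPM in the hypothalamus and 16.0, 20.8 and 27.6 CPM in the cerebellum, so that the last pair of regions overlapped. The span from amygdala to cerebellum was 1.5 ± 0.0766 for C1qa, 1.7 ± 0.0824 for C1qb and 1.74 ± 0.0818 for C1qc (log2 difference, SE). Over the alternatives, each state alone among them, the span ran from 1.33 to 1.66, 1.48 to 1.92 and 1.65 to 1.82 for these chains. That of Csf1r ran from 1.89 to 1.97, so the ranges of C1qb and Csf1r met. Differences between spans were not tested.

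Trem2 and Aif1 were the least abundant. Mean Trem2 was 12 ± 2.78 CPM in the neocortex and 11.8 ± 2.99 in the amygdala, which did not differ beyond their spread (log2 difference 0.0065 for amygdala minus neocortex, 95% interval -0.19 to 0.21, edgeR adjusted p = 0.959). It was 10.2 ± 1.3 CPM in the hippocampus, 6.72 ± 1.59 in the hypothalamus and 4.87 ± 0.814 in the cerebellum. The span of Trem2 between amygdala and cerebellum, 1.43 ± 0.107, differed from that of C1qa by less than its SE, and with primiparous libraries alone the spans were 1.36 for Trem2 and 1.33 for C1qa. Mean Aif1 was 4.65 ± 1.3, 3.53 ± 0.634, 4.5 ± 1.19, 2.53 ± 0.906 and 1.15 ± 0.354 CPM in the amygdala, hippocampus, neocortex, hypothalamus and cerebellum. Its cerebellum libraries held only 9 to 45 Aif1 reads each, which left it the least precise of the 9 genes.

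**Figure D1:**
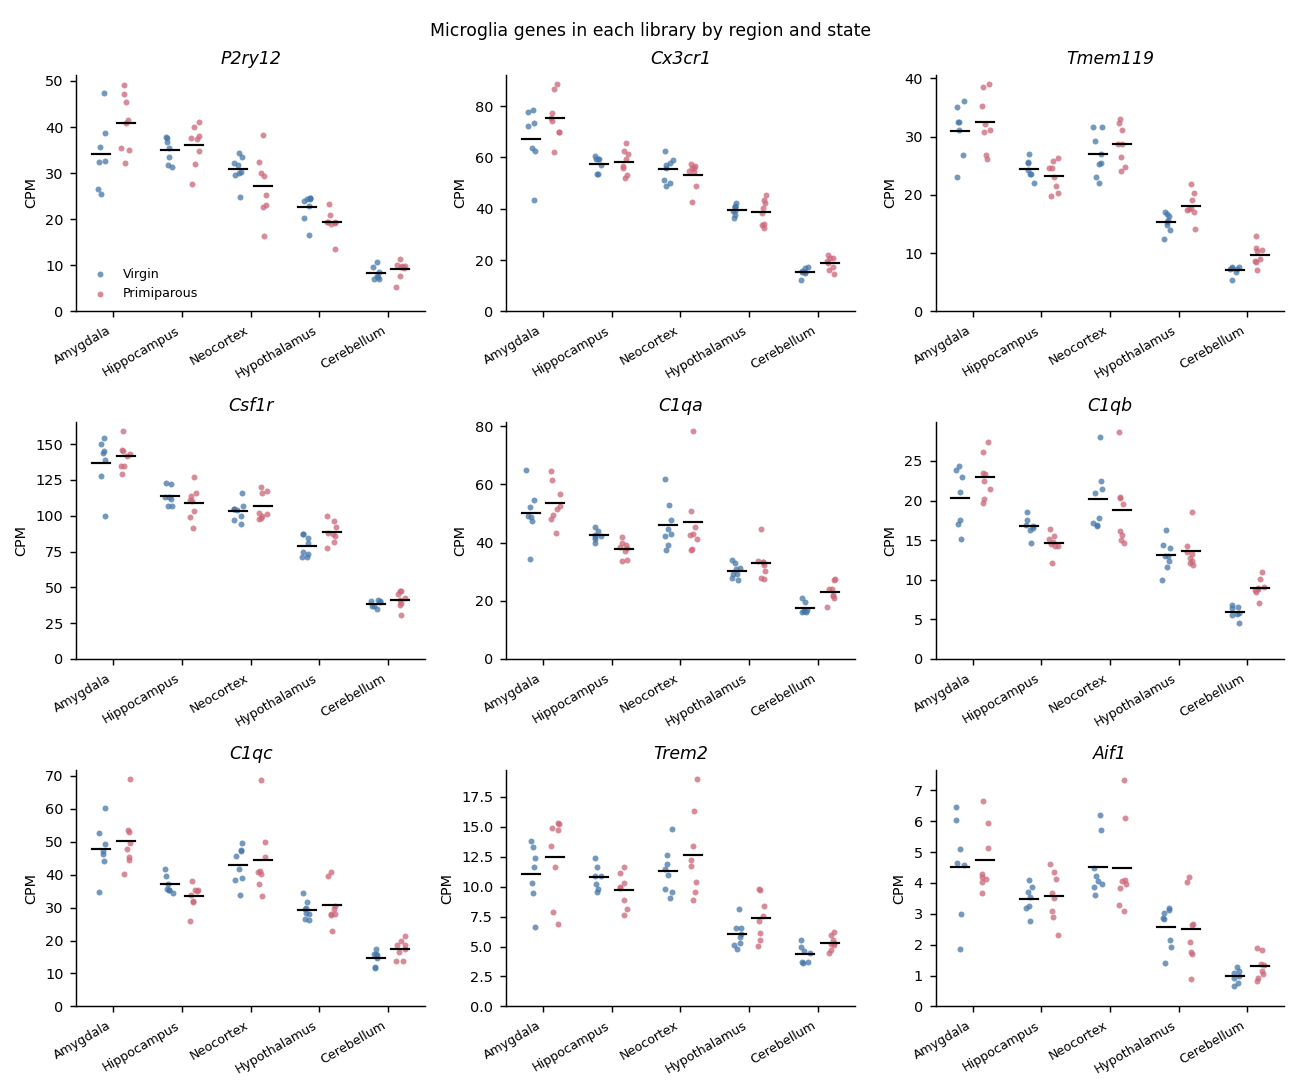
CPM of each of the 9 genes (vertical axes, linear and starting at 0) in every library, by region and reproductive state; each point is 1 library and each line a group mean. The cerebellum lies lowest in every panel, and in its primiparous libraries C1qb sits between 7.08 and 11 CPM, above the 4.58 to 6.84 CPM of the virgin libraries.

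These differences were tested in 1 edgeR quasi-likelihood fit of all 77 libraries, over 10 pairs of regions, with Benjamini-Hochberg adjustment over the 13016 genes of a pair. All 9 genes were higher in the amygdala than in the hypothalamus and the cerebellum, where 34.3% and 38.8% of all genes were higher in the amygdala. All 9 were higher in the hippocampus than in the hypothalamus (36.1% of all genes higher) and the cerebellum (38.5%). The same held for the neocortex against the hypothalamus (39.0%) and the cerebellum (39.7%), and for the hypothalamus against the cerebellum (40.0%). All 9 genes passed in each of these 7 pairs under every alternative run for them, including each state alone. The difference between hypothalamus and cerebellum ran from 0.47 ± 0.108 for Trem2 to 1.26 ± 0.0908 for P2ry12.

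The forebrain regions were closer together, and the 9 genes did not follow 1 order there. Between amygdala and hippocampus, 7 of 9 genes were higher in the amygdala, as were 3902 of all 13016 genes (58.7% called in either direction). P2ry12 (log2 difference 0.074, 95% interval -0.094 to 0.24, edgeR adjusted p = 0.462) and Trem2 (0.21, 0.0029 to 0.41, adjusted p = 0.0756) did not pass. The count was 6 with the libraries of either state alone, where Aif1 lost its call (adjusted p = 0.102 in virgin and 0.147 in primiparous libraries), and 8 with the animal as a replicate block and the correction for gene length and GC content, where P2ry12 passed (0.18, 0.0213). Between amygdala and neocortex, 7 of 9 were higher in the amygdala, as were 4126 of all 13016 genes (62.5% called in either direction). Trem2 and Aif1 (0.069, -0.22 to 0.36, adjusted p = 0.688) did not pass. With virgin libraries alone 3 of 9 and with primiparous libraries alone 4 of 9 genes passed in this pair.

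Hippocampus and neocortex split the list. P2ry12 was higher in the hippocampus by 0.32 ± 0.0828 (edgeR adjusted p = 0.000515), Cx3cr1 by 0.12 ± 0.0552 (0.0449) and Csf1r by 0.11 ± 0.0489 (0.0391). C1qb (-0.29 ± 0.0762, 0.000634), C1qc (-0.28 ± 0.0764, 0.000769), C1qa (-0.19 ± 0.0721, 0.0175), Tmem119 (-0.19 ± 0.0652, 0.00937) and Aif1 (-0.32 ± 0.143, 0.0402) were lower in the hippocampus. Trem2 did not pass. Over 8 alternatives it ran from -0.37 to -0.023 and passed in 1 of them. This pair was called for 67.0% of all genes, and the libraries of the 2 regions overlapped for each of the 9 genes. P2ry12, Csf1r and Cx3cr1 stayed above 0 over 8 alternatives (0.22 to 0.43, 0.05 to 0.18 and 0.1 to 0.15). They passed in 7, 6 and 4 of these alternatives. The lower values depended on the processing as well. With the animal as a replicate block and a correction for gene length and GC content, C1qa was at 0.093 (adjusted p = 0.0977), C1qb at -0.025 (0.7), C1qc at -0.048 (0.445), Tmem119 at 0.036 (0.611) and Aif1 at -0.22 (0.108), and 3 of 9 genes passed. In virgin libraries alone 1 of 9 passed, and without animal 427 5 of 9 did.

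Levels of different genes were compared as CPM per kilobase of exon (RPKM). On that scale C1qa led in every region, with 49.9 ± 7.71 RPKM in the amygdala, 38.4 ± 3.25 in the hippocampus, 44.8 ± 10.2 in the neocortex, 30.3 ± 4.08 in the hypothalamus and 19.7 ± 3.77 in the cerebellum. In the amygdala it was followed by C1qc (25.4 ± 4.21 RPKM), Csf1r (24.2 ± 2.41), C1qb (20 ± 3.1), Cx3cr1 (15.9 ± 2.44), P2ry12 (14.8 ± 2.92), Tmem119 (13.7 ± 2.0), Aif1 (3.03 ± 0.851) and Trem2 (2.39 ± 0.604). C1qc and Csf1r differed by less than 1 SD of either, and so did Cx3cr1, P2ry12 and Tmem119 as neighbours in this order. Over the transcript tagged as principal, C1qc reached 40.8 ± 6.75 RPKM and Csf1r 29.7 ± 2.96, so that the small gap of this pair held only over all exons. The place of Trem2 depended on the gene model too: its exons add up to 4946 bases, but its principal transcript has 1088, and over that length it reached 10.9 ± 2.74 RPKM in the amygdala, above Aif1 at 5.31 ± 1.49 over its principal transcript.

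The makeup of the list changed between regions as well as its level. Read against Csf1r in the same library, C1qa had a median of 0.358 reads per Csf1r read in the amygdala, 0.369 in the hippocampus, 0.417 in the neocortex, 0.383 in the hypothalamus and 0.487 in the cerebellum. P2ry12 went the other way, with a median of 0.274, 0.323, 0.288, 0.245 and 0.216 reads per Csf1r read in the same order. This order depended on state: the hypothalamus had a median of 0.303 in virgin and 0.22 in primiparous libraries, the neocortex 0.302 and 0.254, and the cerebellum 0.214 and 0.227, so that in primiparous libraries the hypothalamus was lowest. Against Csf1r, C1qa had a median of 0.444 in virgin and 0.533 in primiparous cerebellum, and of 0.417 and 0.404 in the neocortex. In virgin libraries its mean log2 ratio was -1.15 in the cerebellum and -1.18 in the neocortex. C1qa reads per P2ry12 read had a median of 1.12 (0.89 to 1.43 over libraries) in the hippocampus and 2.3 (1.54 to 5.29) in the cerebellum, with no overlap between these regions. With 4 CPM added to both genes of a ratio, P2ry12 per Csf1r had medians of 0.349 in the hippocampus, 0.295 in the cerebellum and 0.281 in the hypothalamus, so that its lowest place in the cerebellum depended on that setting, and C1qa per P2ry12 had medians of 1.11 and 1.89 in hippocampus and cerebellum. Trem2 also had its highest median against Csf1r in the cerebellum, 0.123 against 0.0763 in the hypothalamus. Differences of all these ratios between regions or states were not tested.

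**Figure D2:**
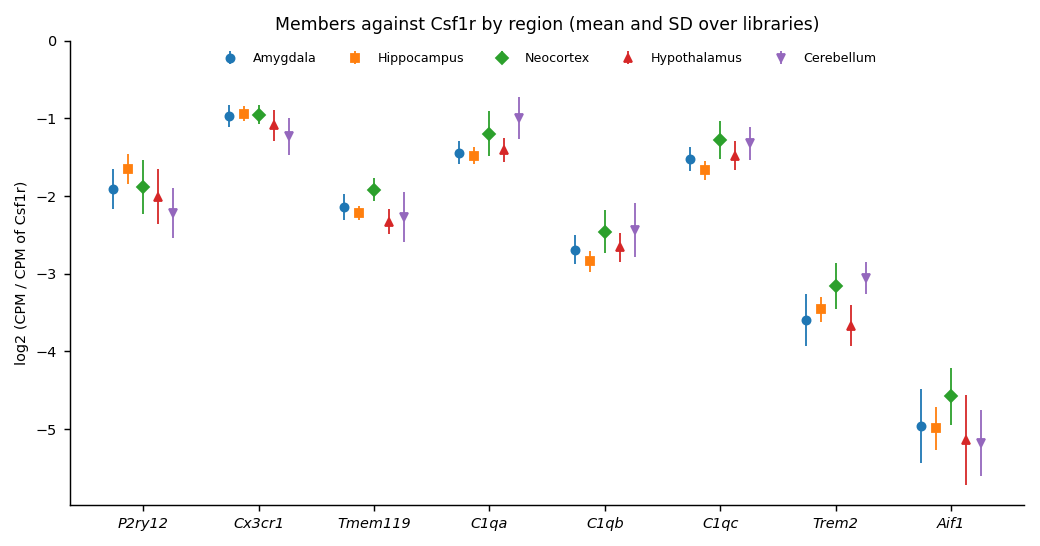
Mean log2 ratio of each gene's CPM to that of Csf1r (vertical axis) in each region, with bars of 1 SD over 15 or 16 libraries. C1qa moves from -1.48 in the hippocampus to -0.99 in the cerebellum, while P2ry12 moves from -1.65 to -2.22.

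The 3 chains of C1q are built into 1 molecule. C1qa to C1qc had a median ratio of 1.06 in the amygdala, 1.16 in the hippocampus, 1.04 in the neocortex, 1.08 in the hypothalamus and 1.31 in the cerebellum. In the neocortex the SD of the log2 ratio was 0.111, beside 0.284 for C1qa and 0.253 for C1qc alone, so the pair varied together there. In the hypothalamus the ratio (SD 0.207) varied about as much as C1qa (0.178) and C1qc (0.212) did. C1qb was the scarcest chain, with a median of 0.437, 0.45, 0.444, 0.439 and 0.454 C1qb reads per C1qc read in the 5 regions in the same order. The cerebellum value of this ratio covers unequal medians in the 2 states, given with the state comparison. Differences of these ratios between regions were not tested.

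The ligands of these receptors were measured in the same libraries. Il34, the ligand of CSF1R made by forebrain neurons, had mean levels of 61.9 ± 8.34 CPM in the amygdala, 40.3 ± 4.04 in the hippocampus, 55.9 ± 4.07 in the neocortex, 27.5 ± 4.45 in the hypothalamus and 8.29 ± 1.06 in the cerebellum. Cx3cl1, the ligand of CX3CR1, had 672 ± 68.0, 567 ± 36.4, 858 ± 62.3, 313 ± 25.5 and 74.5 ± 6.38 CPM. Both were lower in the cerebellum than in each other region, by 1.72 ± 0.0634 (Il34) and 2.07 ± 0.0444 (Cx3cl1) even against the hypothalamus (edgeR adjusted p = 6.07e-40 and 4.43e-56), which are wider steps than those of Csf1r (1.06 ± 0.0509) and Cx3cr1 (1.19 ± 0.059) in the same pair. Csf1, the other ligand of CSF1R, had another order, with 34.4 ± 3.42 CPM in the hypothalamus, 30.1 ± 2.6 in the hippocampus, 22.1 ± 2.55 in the cerebellum, 19.4 ± 2.95 in the amygdala and 18.1 ± 2.03 in the neocortex. The hypothalamus and hippocampus did not differ for Csf1 beyond their spread (hippocampus minus hypothalamus -0.043 ± 0.0584, adjusted p = 0.519).

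**Figure D3:**
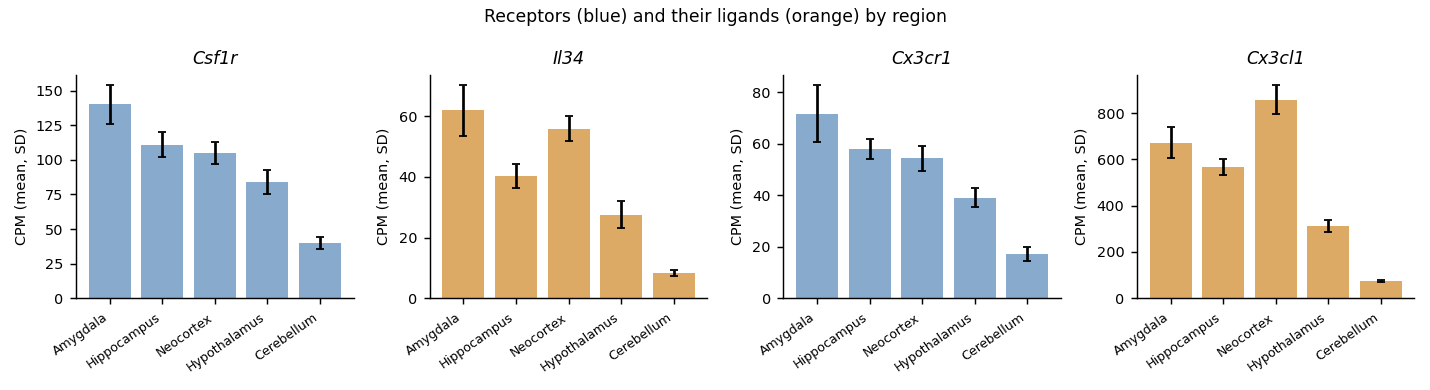
Mean CPM (linear axes from 0, bars of 1 SD over 15 or 16 libraries) of the receptor genes Csf1r and Cx3cr1 and of their ligand genes Il34 and Cx3cl1 in the 5 regions. Il34 falls to 8.29 CPM and Cx3cl1 to 74.5 CPM in the cerebellum.

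Of 8 ligands and partners, 7 were higher in the amygdala than in the cerebellum and 0 lower, at the background of 38.8% given above. Tyrobp, the adaptor of TREM2, had 12.4 ± 2.43 CPM in the amygdala and 5.46 ± 1.52 in the cerebellum, Syk, the kinase that the adaptor recruits, 5.66 ± 1.92 and 1.68 ± 0.45, and Inpp5d, a phosphatase that restrains this signal, 19.5 ± 4.15 and 5.29 ± 1.09. Apoe, a lipid carrier made chiefly by astrocytes and a ligand of TREM2, had 2310 ± 316 and 1470 ± 167 CPM. Tgfb1, which sustains the homeostatic state, was not lowest in the cerebellum: it was lower in the hypothalamus (hypothalamus minus cerebellum -0.42 ± 0.115, edgeR adjusted p = 0.000766), and hippocampus and cerebellum did not differ beyond its spread (-0.064 ± 0.114, adjusted p = 0.613). Hcst, another adaptor, stayed under the filter, at a mean of 0.344 CPM or less in each region, and Plcg2 was not analysed here.

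Of 26 further microglia genes that passed the filter, 24 were higher in the amygdala than in the cerebellum (median log2 difference 1.67, beside 1.94 for the 9 members and -0.027 for all genes). The 2 that went the other way were Itgb5, an integrin subunit with 73.4 and 123 CPM, and Lyn, a kinase with 10.7 and 24.5 CPM. Lyn is named because of its values and not by the rule for named genes. Of 11 complement genes other than C1q, 8 were higher and 2 lower in the amygdala, and the 2 most abundant ones, Sez6 (196 and 89.2 CPM) and Csmd2 (67.9 and 32.7 CPM), encode neuronal proteins with complement control domains. Genes of other phagocytes were present as well. The 10 border macrophage genes summed to 28.8 to 92.3 CPM in amygdala and 24.3 to 35.6 CPM in cerebellum libraries. Stab1, a scavenger receptor and the most abundant of them, had 33.0 and 13.8 CPM on average in these regions, and Mrc1, the mannose receptor, 7.04 and 4.21 CPM. In CPM, with gene length not taken into account, the cerebellum value of Mrc1 was near that of Trem2 and above that of Aif1. The summed level of 10 blood leukocyte genes stayed at or under 7.12 CPM in every library.

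Between reproductive states, the cerebellum was the region where members passed the test. C1qb had a lowest, median and highest value of 4.58, 5.82 and 6.84 CPM in 7 virgin libraries and of 7.08, 8.89 and 11 CPM in 8 primiparous libraries. The groups did not overlap. C1qb was higher in primiparous females by 0.62 ± 0.114 on the log2 scale, a fold of 1.54 (95% interval 0.39 to 0.86 in log2, edgeR adjusted p = 0.0175). C1qa had 16.0, 16.4 and 20.9 CPM in virgin and 17.9, 22.9 and 27.6 CPM in primiparous libraries. The groups overlapped, with 6 of 8 primiparous libraries above every virgin one, and C1qa was higher by 0.42 ± 0.092, a fold of 1.34 (adjusted p = 0.0363). Among all genes, 0.599% were higher in primiparous cerebellum at this threshold, and 0.707% passed in either direction. Leaving out each library in turn, C1qb kept its call in 14 of 15 fits and lost it without virgin animal 4486 (adjusted p = 0.0629). C1qa kept its call in 8 of 15 and lost it without primiparous animal 413, 414, 415 or 427 or virgin animal 409, 4486 or 4487 (adjusted p from 0.0528 to 0.105). With limma-voom C1qb passed (0.0278) and C1qa did not (0.051).

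The other 7 members had positive values in the cerebellum and did not pass. Tmem119 came nearest, with 5.4, 7.32 and 7.69 CPM in virgin and 7.08, 9.62 and 12.9 CPM in primiparous libraries, 7 of 8 of the latter above every virgin library (0.47 ± 0.12, edgeR adjusted p = 0.0579), and it passed without primiparous animal 4493 (0.0118). With all libraries Tmem119 passed in DESeq2 (0.0145), in 1 edgeR fit of all 10 groups (0.0183) and with the correction for gene length and GC content (0.0499), 3 of 8 alternatives. Cx3cr1 followed with 12.1, 15.4 and 17.2 against 14.5, 19.4 and 21.8 CPM (0.3 ± 0.0914, adjusted p = 0.0954), and it too passed without that animal (0.0445) and in DESeq2 (0.0498). C1qc, the third chain, had 11.6, 15.7 and 17.5 against 13.7, 18 and 21.3 CPM (0.25 ± 0.11, adjusted p = 0.219). Trem2 was at 0.29 ± 0.13 (0.221), Aif1 at 0.46 ± 0.246 (0.304), P2ry12 at 0.15 ± 0.136 (0.552) and Csf1r at 0.12 ± 0.0782 (0.418). C1qb reads per C1qc read had a median of 0.385 in virgin and 0.515 in primiparous cerebellum, and of 0.54 and 0.608 with 4 CPM added to both genes. The mean log2 ratio was higher in primiparous libraries by 0.36, or by 0.2 with 4 CPM added, and this difference was not tested.

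**Figure D4:**
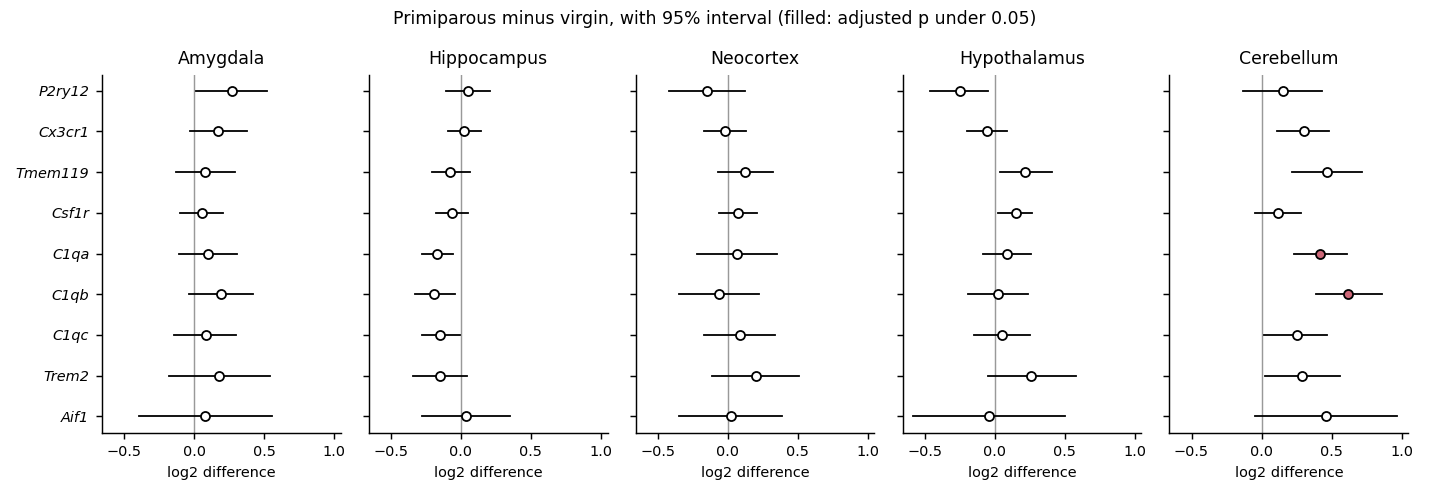
Log2 difference of primiparous minus virgin libraries (horizontal axes) for each gene and region, with its 95% interval; filled points have an adjusted p under 0.05. C1qa (0.42) and C1qb (0.62) in the cerebellum are the filled points.

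State was uneven over the series of animal numbers in the cerebellum libraries, and the values were therefore read within each series. Among animals of 3 digits, C1qb was 5.82 and 6.55 CPM in the 2 virgin libraries and 8.44 to 11 CPM in the 7 primiparous libraries, and C1qa was 16.4 and 16.9 against 20.8 to 27.6 CPM. Among animals of 4 digits, C1qb was 4.58 to 6.84 CPM in 5 virgin libraries and 7.08 CPM in the 1 primiparous library. C1qa was 16.0 to 20.9 CPM in those virgin libraries and 17.9 CPM in that primiparous library, within the virgin range. With the series as a covariate C1qb was at 0.48 (edgeR adjusted p = 0.709) and C1qa at 0.34 (0.794), 0 of the 13016 genes passed, and 787 genes had an unadjusted p under 0.05. Mean C1qb of the virgin libraries was 6.19 CPM in the 3-digit and 5.82 CPM in the 4-digit series. Both series hold both states, but each comparison within a series rests on 1 or 2 animals of a state.

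**Figure D5:**
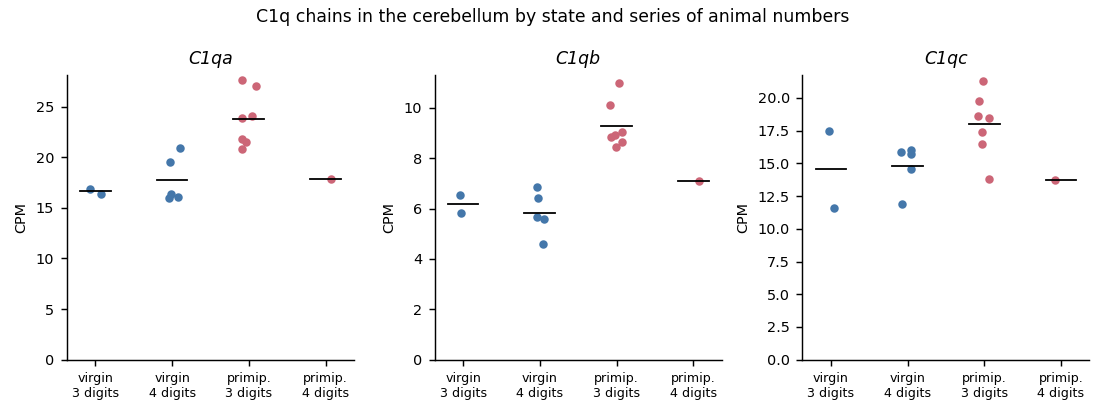
CPM of the 3 C1q chains in the cerebellum (linear axes from 0) by state and by the number of digits in the animal number; each point is 1 library and each line a mean. The single primiparous library of the 4-digit series has 17.9 CPM of C1qa, 7.08 CPM of C1qb and 13.7 CPM of C1qc.

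Some markers of other cells differed in the cerebellum as well. The 4 red blood cell genes summed to 41.6 to 61.3 CPM in virgin and 45.5 to 151 CPM in primiparous libraries, with Hba-a2 at 0.91 ± 0.201 (edgeR adjusted p = 0.0527), Hbb-bs at 1.05 ± 0.256 (0.0652) and Alas2 at 0.76 ± 0.195 (0.0645). The 10 border macrophage genes summed to 24.3 to 30.1 CPM and 25.3 to 35.6 CPM, and 0 of 3 that were tested passed (Stab1 0.074 ± 0.15, Mrc1 0.33 ± 0.172). The 10 blood leukocyte genes summed to at most 1.79 CPM in virgin and 2.5 CPM in primiparous libraries, with Ccr2, a monocyte receptor, at 0.397 and 0.574 CPM on average and Cd79a, of B cells, at 0.193 and 0.364 CPM. The 8 choroid plexus genes set libraries apart: they summed to 567 to 1320 CPM in virgin animals 409, 4489 and 4491 and to 3660 CPM in primiparous animal 421, against 37.2 to 156 CPM in the other 11 libraries. Without the 4 libraries over 500 CPM, a limit set after seeing the data that left 4 virgin and 7 primiparous libraries, C1qb was at 0.66 ± 0.153 (edgeR adjusted p = 0.147) and C1qa at 0.53 ± 0.114 (0.139). In that fit 0 of 13016 genes passed, with 1760 at an unadjusted p under 0.05, and no other tool was run on these libraries. In the cerebellum, 0 genes of these 4 lists were at 0 in all libraries of a state. Mbp, a myelin protein (0.42 ± 0.0826, adjusted p = 0.0254), Ugt8a, a myelin lipid enzyme (0.31 ± 0.0739, 0.05 after rounding, under the threshold), Olig1, an oligodendrocyte lineage factor (0.35 ± 0.0597, 0.0114), and Aqp4, the astrocyte water channel (0.3 ± 0.0558, 0.0175), passed, each as the only or 1 of 2 genes called in its list. The 10 oligodendrocyte genes summed to 4730 to 6280 CPM and 5670 to 7920 CPM. The part of these cells in the C1q difference was not tested.

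Of the wider microglia list, 0 of 26 genes passed in the cerebellum, with a median of 0.18 beside 0.3 for the 9 members and 0.0051 for all genes. Itgb5 was at -0.085 ± 0.0489. Of 12 genes known from activated microglia, 0 passed, and the 2 most abundant ones were at 0.26 ± 0.0969 (Fth1, ferritin heavy chain) and -0.016 ± 0.0512 (Ctsb, a lysosomal protease). Of 11 complement genes 0 passed (Sez6 -0.17 ± 0.0654, Csmd2 -0.19 ± 0.0957), and of 8 ligands and partners 0 passed, with Tyrobp at 0.48 ± 0.158 (edgeR adjusted p = 0.114) and Apoe at 0.21 ± 0.0662 (0.106). Of 8 interferon and antigen presentation genes B2m, the light chain of class I molecules, passed at 0.34 ± 0.08 (0.0483), and H2-D1, a class I heavy chain, was at 0.12 ± 0.0635.

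In the hypothalamus, where 22.6% of all genes passed in edgeR, 0 of the 9 members did, with 3 of them at an unadjusted p under 0.05 and 0 of 9 passing in limma-voom or DESeq2. The count over all genes fell from 2939 to 3 with the animal number series as covariate and to 463 with the correction for gene length and GC content. The nearest to passing had opposite signs. P2ry12 had 16.5, 24.2 and 24.7 CPM in 8 virgin and 13.5, 19.5 and 23.3 CPM in 8 primiparous libraries (-0.25 ± 0.0985, edgeR adjusted p = 0.0648). Tmem119 had 12.5, 15.6 and 17.1 against 14.2, 17.7 and 21.9 CPM (0.22 ± 0.091, 0.0752), and Csf1r 70.9, 77.8 and 87.4 against 77.6, 87.5 and 100.0 CPM (0.15 ± 0.0602, 0.0778). The groups overlapped for all of the 3 genes. With the correction for gene length and GC content P2ry12 moved to -0.021 (adjusted p = 0.919), and P2ry12 had a GC content of 0.386, the lowest of the members, which otherwise ran from 0.503 to 0.595. With library size alone, without scaling factors, Csf1r passed at 0.17 (0.0471). P2ry12 passed without primiparous animal 413 or virgin animal 409, Csf1r without primiparous animal 4493 or virgin animal 409, and Tmem119 without primiparous animal 418.

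Of the 8 ligands and partners, 2 passed in the hypothalamus, a share near the 22.6% of all genes. Il34 was higher in primiparous females (24.8 ± 2.37 and 30.2 ± 4.55 CPM, 0.26 ± 0.0869, edgeR adjusted p = 0.0362), as was Apoe (1900 ± 240 and 2460 ± 358 CPM, 0.35 ± 0.0809, 0.0058), and the other 6 ligands and partners did not pass. In the wider microglia list Slc2a5, a fructose transporter, was higher (0.48 ± 0.137, 0.0158), and Tgfbr1, a receptor of TGF-beta (-0.28 ± 0.0803, 0.0165), and Mertk, a receptor for engulfing dead cells (-0.37 ± 0.135, 0.0486), were lower, 3 of 26 in all, below the share of all genes. In the complement list Itgb2, the shared chain of complement receptors 3 and 4, was higher (0.48 ± 0.124, 0.00992), as was Csmd2 (0.22 ± 0.0659, 0.0192), and 3 of 11 passed in all, near the share of all genes. Of 8 interferon and antigen presentation genes B2m alone passed and was lower (-0.23 ± 0.0681, 0.0193), while 6 of the 8 values were above 0 and the list median was 0.17, and 0 of 12 activated microglia genes passed.

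Lists of other cells in the hypothalamus are given beside the 22.6% of all genes called there in either direction and the median of 0.014 over all genes. Of 6 oligodendrocyte precursor genes 4 were higher (median 0.19), led by Cspg4 (0.41 ± 0.103, edgeR adjusted p = 0.00849), Cspg5 (0.19 ± 0.049) and Olig2 (0.21 ± 0.0588). Of 10 oligodendrocyte genes 1 was higher (Cnp, 0.16 ± 0.0486) and 3 were lower, Mal (-0.19 ± 0.0629) among them, with a list median of -0.045. Of 10 astrocyte genes the transporters Slc1a2 (-0.16 ± 0.0503) and Slc1a3 (-0.19 ± 0.0534) were lower, a share near that of all genes. Of 10 neuronal genes Map2 (-0.29 ± 0.0602), Snap25 (-0.19 ± 0.0495) and Syt1 (-0.15 ± 0.0468) were lower and Rbfox3 (0.17 ± 0.0556) was higher, while 6 of the 10 values were above 0 and the list median was 0.078. Of 10 vascular genes Pdgfrb (0.29 ± 0.0844) and Cldn5 (0.41 ± 0.147) were higher, again near the share of all genes. Of 3 red blood cell genes Alas2 (0.72 ± 0.219) and Hba-a2 (0.68 ± 0.212) were higher. Ttr was the 1 of 6 choroid plexus genes that passed (1.53 ± 0.456), and the other 5 ran from -0.99 (Aqp1) to 0.17 (Clic6), with a list median of -0.27. Rbfox3, Aqp1 and Clic6 are named because of their values and not by the rule. Their part in the values of the members was not tested.

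In the amygdala, hippocampus and neocortex 0 members passed, and 0.0%, 0.0% and 0.0% of all genes did (0 of 13016 in each, by edgeR, with 1544, 961 and 1276 genes at an unadjusted p under 0.05). In limma-voom 0 genes passed in each of the 3 regions, and in DESeq2 95, 12 and 4 genes did, with 0 members among them. The 3 C1q chains had negative values in the hippocampus and positive ones in the amygdala. In the hippocampus all 8 primiparous libraries were below the virgin mean for C1qa and for C1qb, and 7 of 8 for C1qc. C1qa had 39.8, 42.4 and 45.5 CPM in virgin and 33.6, 38.2 and 41.9 CPM in primiparous libraries (-0.17 ± 0.0532, edgeR adjusted p = 0.564). C1qb was at -0.19 ± 0.0705 (0.615) and C1qc at -0.15 ± 0.0662 (0.661). Without the 4 hippocampus libraries over 500 CPM of choroid plexus genes (913 to 4000 CPM, 2 of each state) the chains were at -0.14, -0.18 and -0.18. In the amygdala all 9 values were positive, from 0.055 (Csf1r) to 0.27 (P2ry12, unadjusted p = 0.0383, adjusted p = 0.39). The amygdala library of virgin animal 4486 was the lowest of its group for 7 of the 9 genes, with 99.8 CPM of Csf1r (next 128) and 43.5 CPM of Cx3cr1 (next 62.4), and without it Csf1r was at -0.0028, C1qa at 0.033 and C1qc at 0.026. In the neocortex they ran from -0.15 (P2ry12) to 0.2 (Trem2).

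An interaction term in the fit of each of the 10 pairs, again over 13016 genes, asked whether a gene's state difference was unequal in 2 regions. The series of animal numbers was not a covariate in these interaction fits. Between states in the cerebellum, C1qb and C1qa had lost their calls with that covariate (edgeR adjusted p = 0.709 and 0.794). In the pair of hippocampus and cerebellum, where 0.169% of all genes passed, C1qb (hippocampus minus cerebellum -0.81 ± 0.124, edgeR adjusted p = 0.00177) and C1qa (-0.58 ± 0.105, 0.013) passed. Without the hippocampus library of animal 413 these members passed as well, and so did Tmem119, which was at -0.54 ± 0.132 (adjusted p = 0.0547) with all libraries and passed in that 1 of 6 alternatives (0.0441). C1qa lost the call in 1 fit of all 10 groups (adjusted p = 0.124). Both lost it without the libraries over 500 CPM of choroid plexus genes (-0.84 and -0.66, adjusted p = 0.0672 for each). Between hypothalamus and cerebellum, with 15.5% of all genes called, C1qb (-0.61 ± 0.155, 0.00929) and Cx3cr1 (-0.36 ± 0.114, 0.031) passed, and Cx3cr1 lost the call without animal 427 (0.0582). C1qa (-0.34 ± 0.127, adjusted p = 0.0638) passed in 2 of 4 alternatives (lowest adjusted p 0.0328) and P2ry12 (-0.41 ± 0.171, 0.091) in 1 of 4, without animal 427 (-0.51, 0.031). Between amygdala and hypothalamus, with 18.2% called, P2ry12 passed (0.52 ± 0.16, 0.0226), and with the animal as a replicate block and the length and GC correction it was at 0.22 (0.561).

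No member passed in the other 7 pairs, in which the share of all genes called was 0.0% (amygdala and hippocampus), 1.11% (amygdala and neocortex), 0.415% (amygdala and cerebellum), 0.0% (hippocampus and neocortex), 17.2% (hippocampus and hypothalamus), 0.0% (neocortex and hypothalamus) and 0.00768% (neocortex and cerebellum). Neocortex against cerebellum was not settled for C1qb (-0.69 ± 0.182, edgeR adjusted p = 0.212), which passed in 2 of 4 alternatives, 1 fit of all 10 groups (0.0405) and the animal as a replicate block with the length and GC correction (-0.79, 0.0201). Pairs that share a region share its libraries, and so are not separate evidence.

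From library to library within a group, most members varied together. After centring log2(CPM + 4) within the 10 groups, the correlation of a gene with the mean of the other 8 members over 77 libraries was 0.767 for C1qa, 0.705 for C1qc, 0.698 for C1qb, 0.676 for Trem2, 0.594 for Tmem119, 0.555 for Csf1r, 0.539 for Cx3cr1 and 0.393 for Aif1. P2ry12 stood apart at -0.107. The points share animals and library chemistry, and the values are a description. Among the 10 other genes most like the mean of the members were S100a16 (0.783), Cst3 (0.771), Ftl1 (0.763), Rpl11 (0.76), S100b (0.756), Rps21 (0.751), Ndrg2 (0.748) and Csrp1 (0.746). Of these, Rpl11 and Rps21 encode ribosomal proteins.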

How the data were processed

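The authors aligned single-end 100-base reads of polyadenylated RNA with HISAT2 to mm10 and counted reads that map once with featureCounts; the strand setting is not given in the sources used here. The deposited counts are whole numbers of reads for each gene, not normalized, in 77 of 80 libraries (3 virgin libraries are not analysed here). A deposited table of log2 values by the authors served for gene symbols, and the filter was computed from the counts. That table gave no levels here, since its values are log2(count / size factor + 4) within 5e-05 and lie a median of 3.94 from log2(CPM + 4). Genes with at least 5 CPM in 8 libraries were tested with edgeR 4.0.16 (R 4.3.3, TMM scaling, robust quasi-likelihood test, Benjamini-Hochberg adjustment over 13016 genes, threshold 0.05): states within each region, regions in a fit of all 10 groups, and interactions in the 4 groups of 2 regions. State, region and interaction fits were tested on simulated data. Intervals are 95%, and RPKM used the bases of all exons in GENCODE M21. Alternatives were limma 3.58.1 (voom), DESeq2 1.42.0, other scalings, no filter, covariates, a length and GC correction (97.05% of genes had both) and leaving out libraries. The region libraries are paired by animal; centred deviations of same-animal libraries correlated at medians of -0.0132 to 0.104 over the 10 pairs of regions, and those of other animals at -0.0107 to 0.00673. Counted reads per library, 7959192 to 37871854, set the counting precision. Named genes were the members, their ligands and partners, the 2 most abundant genes of each other list, up to 3 called genes with the smallest p per list and region, and the 10 genes most like the members. Some genes that this rule names are not reported here. The members and lists were chosen with earlier results of these data known.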

Additional observations from a re-analysis of the deposited data

Results flagged for a closer look

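Among 90 groups of 7 or 8 libraries (9 genes by region and state), 8 had a library that lay far from the others by Dixon's test at the 95% level, which flags about 1 in 20 groups by chance. Of these, 6 belong to primiparous animal 427, the highest of its group for C1qa in the neocortex (78.3 CPM, next 50.7) and the hypothalamus (44.7, next 33.6), for C1qb in the neocortex (28.7, next 20.5) and the hypothalamus (18.5, next 14.3), and for C1qc in the amygdala (69.0, next 53.5) and the neocortex (68.8, next 49.8). The other 2 are the lowest of their groups, P2ry12 in the hypothalamus of primiparous animal 421 (13.5 CPM, next 19.0) and Tmem119 in the cerebellum of virgin animal 409 (5.4 CPM, next 6.74).

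The state difference differed between 2 regions by a test of the interaction for C1qb in hippocampus minus cerebellum (-0.81) and hypothalamus minus cerebellum (-0.61), for C1qa in hippocampus minus cerebellum (-0.58), for Cx3cr1 in hypothalamus minus cerebellum (-0.36) and for P2ry12 in amygdala minus hypothalamus (0.52). The series of animal numbers was not a covariate in these tests. Of all genes, 0.169% passed in hippocampus minus cerebellum, 15.5% in hypothalamus minus cerebellum and 18.2% in amygdala minus hypothalamus. Cx3cr1 lost its call without animal 427. P2ry12 lost its call with the animal as a replicate block and the length and GC correction (0.22). Both calls in hippocampus minus cerebellum were lost without the libraries over 500 CPM of choroid plexus genes.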

How the results depend on the processing

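Depth limits Aif1 and Trem2 most, and state is uneven over the series of animal numbers. Of 360 state values under alternatives that keep all libraries, 333 kept direction and side of the threshold. So did 510 of 540 region values under alternatives that include fits of each state alone. Members called in the cerebellum between states (2) became 1 with limma-voom, 0 with the series covariate, 4 with DESeq2, 3 with the length and GC correction, 3 in 1 fit of all 10 groups and 0 to 4 leaving out 1 library. Without libraries high in choroid plexus genes, a choice made after seeing the data, they became 0, as did the 2 in the interaction of hippocampus and cerebellum. In the hypothalamus (0) they became 1 with library size alone and 0 to 2 leaving out 1 library. The animal as a replicate block changed no call of a member. The paired fit with replicate block and length and GC correction gave 3 of 9 in hippocampus minus neocortex (8), with C1qa at 0.093 and Tmem119 at 0.036, 0 for amygdala minus hypothalamus in the interaction (1) and 1 for neocortex minus cerebellum (0). Virgin libraries alone gave 1 in hippocampus minus neocortex and 3 in amygdala minus neocortex (7), primiparous libraries alone 4 in the latter, and leaving out animal 427, chosen after seeing the data, 5 in the former. One fit of all 10 groups gave 1 in the interactions of hippocampus (2) and neocortex (0) with cerebellum. In the interaction of hypothalamus and cerebellum (2), C1qa passed in 2 of 4 alternatives, Cx3cr1 in 3 and P2ry12 in 1. Signs turned, with no call involved, in these values. With the series covariate, Aif1 was -0.029, P2ry12 -0.0032 and Tmem119 0.018 in the hippocampus, C1qb -0.092 and C1qc -0.049 in the hypothalamus, and Aif1 -0.15, C1qc -0.031 and C1qa -0.02 in the amygdala. With the length and GC correction, Aif1 was -0.051, C1qc -0.053, C1qa -0.12 and Tmem119 -0.0087 in the neocortex, and C1qb -0.13, C1qc -0.098 and C1qa -0.081 in the hypothalamus. With limma-voom, Aif1 was -0.0061 in the hippocampus and -0.011 in the neocortex, and C1qb -0.011 in the hypothalamus. With library size alone Aif1 was -0.014 in the neocortex. P2ry12 was -0.032 in amygdala minus hippocampus with virgin libraries alone, and Trem2 in amygdala minus neocortex -0.0039 with the replicate block, -0.00099 with the correction as well and -0.016 with primiparous libraries alone. Leaving out 1 library, Aif1 ran from -0.057 to 0.2 in the amygdala, -0.026 to 0.11 in the hippocampus, -0.19 to 0.093 in the hypothalamus and -0.12 to 0.099 in the neocortex, C1qa from -0.082 to 0.13, C1qb from -0.18 to 0.014, C1qc from -0.029 to 0.15 and Cx3cr1 from -0.04 to 0.025 in the neocortex, C1qb from -0.049 to 0.075 and C1qc from -0.022 to 0.1 in the hypothalamus, Csf1r from -0.0028 to 0.084 in the amygdala, and Cx3cr1 from -0.0049 to 0.053 in the hippocampus. The cause of these shifts was not tested.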
